A study of Mus musculus with 60 samples.

Results

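The 53 genes described here encode Wnt ligands (19 genes), Frizzled receptors (10), secreted Wnt inhibitors (10), R-spondins and their Lgr receptors (6), and nuclear factors and feedback targets of the pathway (8), out of 21866 protein-coding mouse genes. They were chosen as a named gene family and not by a rule on the measurements, but with earlier results of these data known. A promoter was taken as 1.5 kb to either side of each annotated protein-coding start site, and it was called in a library when a deposited H3K27me3 peak overlapped it by at least 1 bp. Of the 53 promoters, 42 were called in at least 2 of the 30 H3K27me3 libraries, 9 in all 30 and 11 in none.

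The mark H3K27me3 was mapped by CUT&RUN (a nuclease tethered by an antibody releases the chromatin that carries it) while mouse embryonic stem cells (ESCs) were turned into anterior neural progenitors over 5 days. There are 60 samples from 8 male ESC lines of the B6129S6F1 Tet1 tm1Koh background, namely 30 H3K27me3 libraries and an IgG control for each. Feeder-depleted ESCs from serum culture (day 0) were grown in N2B27 medium, with bFGF until day 3, and collected at day 2, day 3 and day 5, and further cultures received 5 µM of the Wnt inhibitor XAV939 from day 2 to day 5 (day 5 XAV). WT, Tet1 KO and Tet1 MUT cells were compared, each as 2 lines per time point.

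Wild-type (WT) cells were lines WT70 and WT72 throughout. Tet1 KO cells lack the DNA dioxygenase TET1 and were lines KO15 and KO25 at days 0 and 2, and KO15 and KO1 afterwards. Tet1 MUT cells carry substitutions that inactivate the catalytic domain of TET1, were made by CRISPR with homology-directed repair, and were lines CM59 and CM40 at days 0 and 2, and CM59 and CM69 afterwards. Each line is 1 derivation or clone, so a line and its genotype cannot be told apart beyond the 2 lines, and in KO and MUT the second line differs between day 2 and day 3. P-values compare libraries of these few lines, with different days of 1 line counted as separate libraries. They do not measure how far new lines of a genotype would differ. Where paired values follow, the first is from WT70, KO15 or CM59 and the second from the other line.

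Wnt proteins are secreted signals that bind a Frizzled receptor and an LRP co-receptor on the receiving cell, which frees β-catenin from destruction so that it can act with TCF and LEF factors on target genes. Secreted inhibitors of the Dkk, Sfrp and Wif families hold the signal down, and R-spondins acting through Lgr receptors prolong it by keeping Frizzled proteins on the cell surface. In the early embryo the pathway drives the primitive streak and posterior fates, while anterior neural tissue forms where it is low. H3K27me3 is deposited by Polycomb repressive complex 2 and marks many developmental genes that a cell keeps silent. XAV939 stabilises AXIN through inhibition of tankyrases and so dampens the β-catenin branch.

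The libraries held 704 to 3466 peaks and called 21.3% to 81.4% of the 3179 promoters that had a peak in at least 2 libraries, and read depth is unknown from the peak files. Day 5 XAV of line CM59 stood apart with 704 peaks, against 2847 in the same line without XAV. The KO libraries held more peaks than the WT libraries at day 3 (1849 and 1877 against 969 and 1135) and at day 5 (2738 and 2122 against 1270 and 1385). As controls, 97.4% to 100% of 39 Hox promoters and 0% of 7 promoters of broadly active genes were called per library. To set peaks of different libraries side by side, each promoter's highest peak was placed among the 440 regions called in all 30 libraries. The percentage of those regions with a lower peak in the same library is termed the standing below. A standing of 0 is a peak lower than all 440, and "no peak" means that none was called. In means and tests of standing a library without a peak counted as 0, so these also reflect the calls. Medians and ranges of standing for a gene used only the libraries with a peak.

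Ligands carried most of the mark. The promoters of 9 of 19 Wnt genes were called in all 30 libraries, and no member of the other roles was. Among all protein-coding genes, 2.01% were called in all 30 libraries and 14.5% in at least 2. Over libraries and genes, 81.2% of Wnt ligand promoters were called, compared with 48.9% in the R-spondin and Lgr group, 33.3% among secreted inhibitors, 28.3% among nuclear factors and feedback targets, and 22.0% among Frizzled receptors. The same share over all protein-coding genes was 7.06%. These shares are descriptions with no test, since genes are not replicates. Of 59 other genes of the pathway, a list that holds co-receptors, cytoplasmic components and further targets, 3 were called in all 30 libraries (Kremen2, Shisa3 and Cdx2), 18 in at least 2 and 37 in none.

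**Figure D1:**
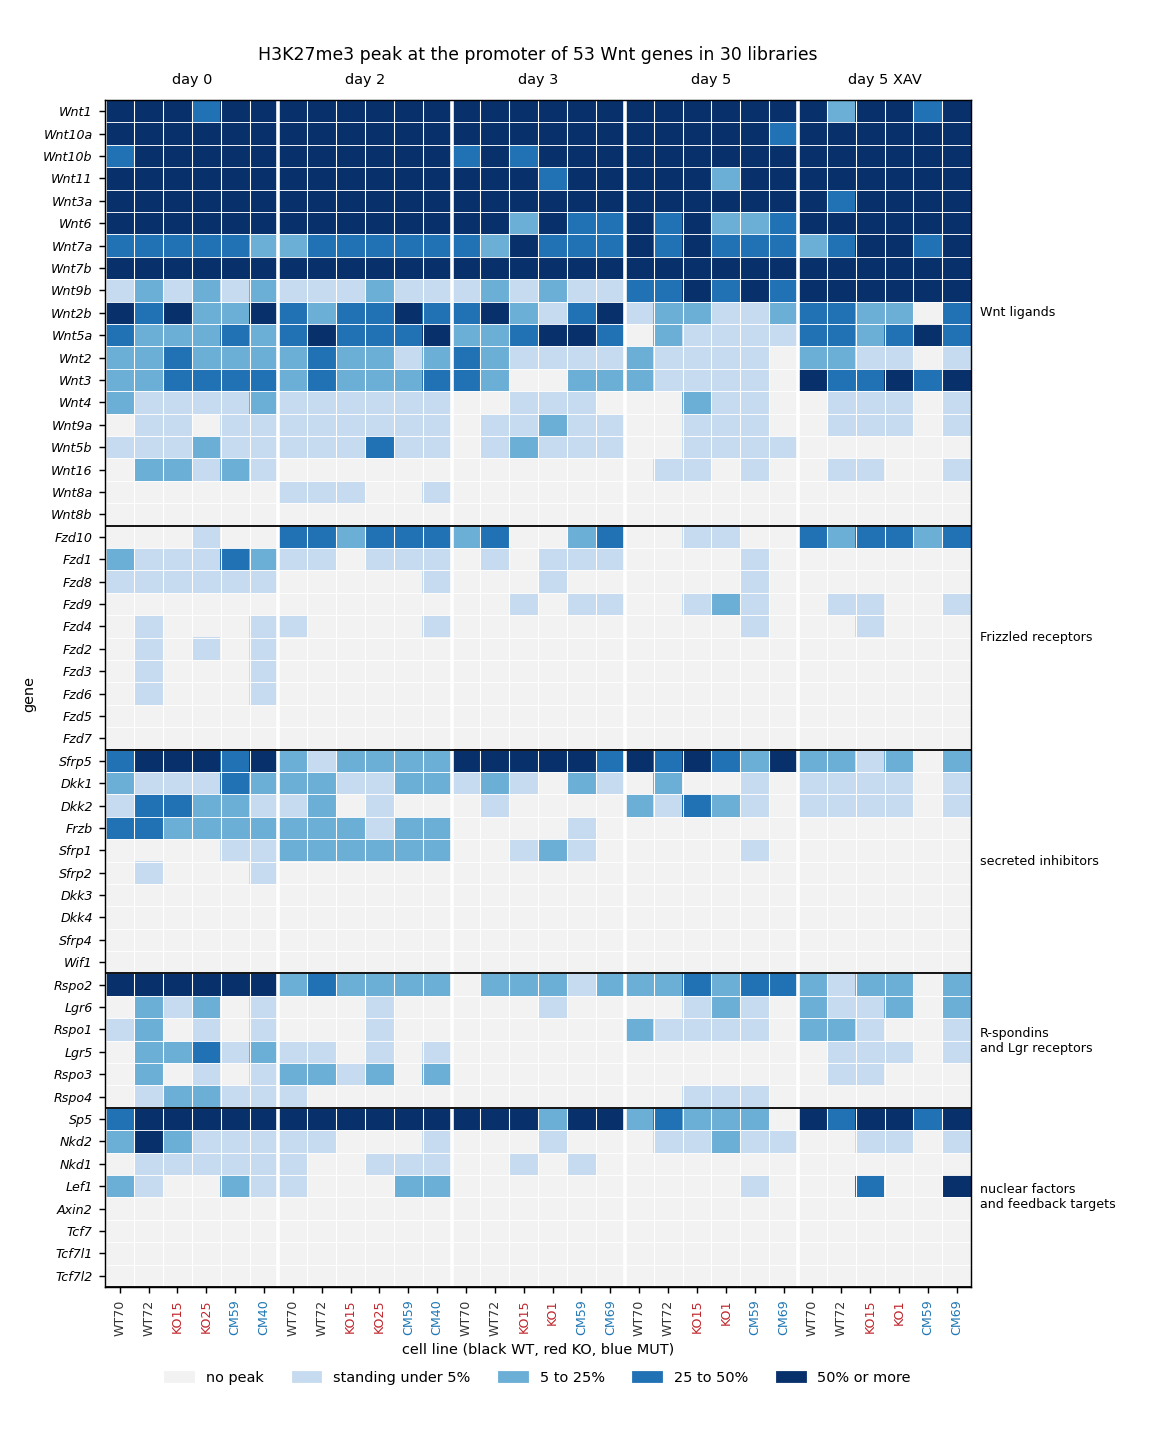
Calls at the 53 promoters (rows, grouped by role) in the 30 libraries (columns, by time point and genotype, with the 2 lines of a genotype side by side). Grey is no peak, and darker blue is a higher standing; the top 9 rows, all Wnt ligands, are filled in all 30 libraries, and 11 rows across the roles are empty.

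**Figure D2:**
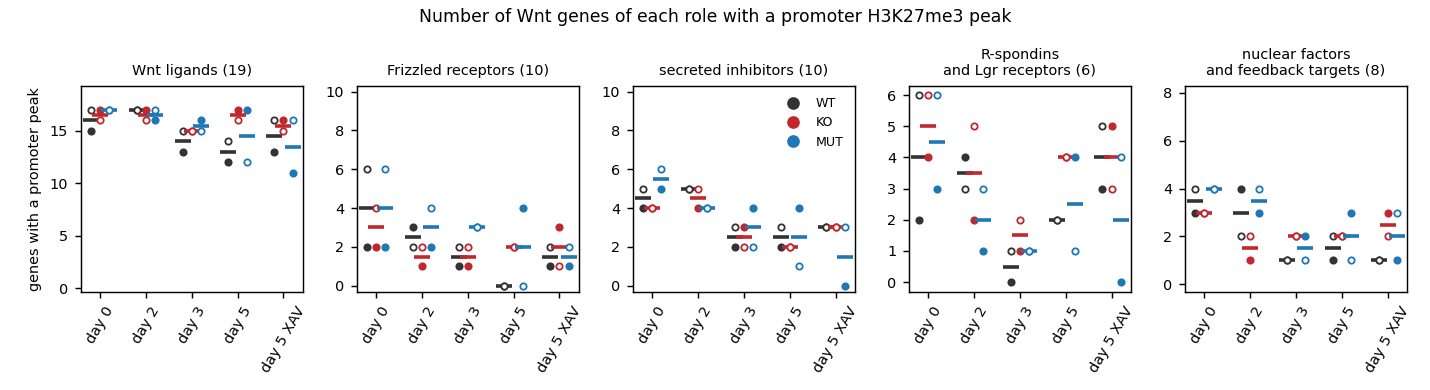
Number of genes of each role with a promoter peak (vertical axis, up to the number of genes in brackets) against time point (horizontal axis). Points are lines (filled for the first, open for the second), coloured by genotype, and bars are means of 2 lines; every library has 11 or more of the 19 ligands and 6 or fewer of the 10 Frizzled receptors.

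The comparisons described further on turned on 8 promoters, and the 150 bases before their most upstream called start site are shown for that reason. The first 6 were called in at least 3 more KO than WT libraries after day 2, and Wnt3 and Fzd10 were called in both WT lines and neither KO line at day 3. The sequences are from GRCm38.p6 (mm10), written 5′ to 3′ on the strand of the gene, and capitals mark each CG, the dinucleotide that carries DNA methylation and on which TET1 acts. They lie at chr4:137277339-137277488 (plus strand), chr6:119544348-119544497 (minus), chr11:59306778-59306927 (plus), chr5:135251231-135251380 (minus), chr1:135105277-135105426 (minus), chr13:73847632-73847781 (minus), chr11:103774000-103774149 (plus) and chr5:128600694-128600843 (plus).
Wnt4: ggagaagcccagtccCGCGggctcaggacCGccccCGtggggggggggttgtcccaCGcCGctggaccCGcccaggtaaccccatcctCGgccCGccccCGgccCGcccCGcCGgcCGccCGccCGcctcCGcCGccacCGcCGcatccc
Wnt5b: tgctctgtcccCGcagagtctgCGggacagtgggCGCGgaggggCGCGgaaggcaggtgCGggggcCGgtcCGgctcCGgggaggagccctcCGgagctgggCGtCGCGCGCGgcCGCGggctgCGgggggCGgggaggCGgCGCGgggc
Wnt9a: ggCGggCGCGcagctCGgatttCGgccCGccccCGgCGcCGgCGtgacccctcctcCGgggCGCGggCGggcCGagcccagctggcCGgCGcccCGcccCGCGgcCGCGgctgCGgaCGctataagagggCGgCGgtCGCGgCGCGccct
Fzd9: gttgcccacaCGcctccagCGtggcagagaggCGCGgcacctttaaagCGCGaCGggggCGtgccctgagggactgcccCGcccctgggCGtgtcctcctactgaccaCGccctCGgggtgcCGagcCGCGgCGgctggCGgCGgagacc
Lgr6: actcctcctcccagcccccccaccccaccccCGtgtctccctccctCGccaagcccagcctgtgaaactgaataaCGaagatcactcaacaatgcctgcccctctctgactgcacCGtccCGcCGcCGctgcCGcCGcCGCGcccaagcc
Nkd2: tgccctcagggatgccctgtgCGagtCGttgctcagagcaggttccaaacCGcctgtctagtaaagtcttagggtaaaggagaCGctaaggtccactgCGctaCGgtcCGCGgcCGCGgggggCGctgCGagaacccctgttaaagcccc
Wnt3: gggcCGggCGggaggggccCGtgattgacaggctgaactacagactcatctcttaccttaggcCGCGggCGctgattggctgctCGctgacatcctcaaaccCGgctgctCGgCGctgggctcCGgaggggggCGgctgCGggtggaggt
Fzd10: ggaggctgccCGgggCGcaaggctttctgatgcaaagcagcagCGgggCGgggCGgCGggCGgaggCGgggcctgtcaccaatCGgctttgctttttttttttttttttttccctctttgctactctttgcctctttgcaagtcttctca

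All 8 promoters held more CG than the median promoter. Wnt9a held 30 CG in 150 bases, and 0.347% of all RefSeq promoters held as many in the same window. Wnt5b held 23, Wnt4 20, Fzd9 18, Wnt3 13, Nkd2 12, Lgr6 11 and Fzd10 9, against a median of 4 over all promoters. In the whole 3 kb windows the median was 138 CG over the 53 members and 75 over all genes. It was 116 over all promoters called in at least 2 libraries and 147 over those called in all 30, so a high CG count was not particular to the members. CG content did not sort called from uncalled members. The 9 members called in all 30 libraries had a median of 138 and the 11 never called a median of 167. The Frizzled receptors had the highest median of the 5 roles, at 178, and the lowest share of calls.

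The 9 ligands called in every library differed in how high their peaks stood. Wnt7b, expressed in forebrain and lung epithelium during development, had a median standing of 91.7 (range 55 to 99.3), followed by Wnt10a at 89.2, Wnt1 at 87.8 and Wnt3a at 83.8. Wnt1 and Wnt3a mark the midbrain and dorsal neural tube and the posterior growth zone. Wnt11, which acts mainly in cell movements, stood at 79.8, Wnt6 at 70.9 and Wnt10b at 69.9. Wnt7a stood at 39.3 and Wnt9b at 12.3. The ranges over libraries overlapped widely, from 6.36 to 98.4 for Wnt1 and from 44.3 to 98.9 for Wnt3a.

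Wnt9b, an inducer of kidney tubules, had low peaks until day 3 and higher ones at day 5. Its standing was 0.909 to 20 in the 18 libraries of days 0, 2 and 3 and 35.5 to 73.2 in the 12 libraries of day 5 with or without XAV, and the ranges did not overlap. At day 5 the standings were 39.5 and 48 in WT, 57.3 and 35.5 in KO, and 73.2 and 36.1 in MUT. Wnt9b was chosen for this description after its values were seen, and no test was made. The share of all promoters with such a gap between time points is not given here.

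Several of these genes are neighbours. Wnt1 and Wnt10b start sites are 11.7 kb apart on chromosome 15, Wnt3a and Wnt9a 16.2 kb apart on chromosome 11, Wnt6 and Wnt10a 19.6 kb apart on chromosome 1, and Wnt3 and Wnt9b 24.3 kb apart on chromosome 11. A single peak spanned both promoters only for Wnt6 and Wnt10a, in 9 libraries (5 of day 2, 2 of day 3 and 2 of day 5 with XAV). In those libraries both genes have 1 standing.

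Another 7 ligands were called in 20 to 29 libraries. Wnt2b and Wnt5a were called in 29, Wnt2 in 28, Wnt3 in 27, Wnt4 and Wnt9a in 22 and Wnt5b in 21. Wnt5a, the main ligand of the β-catenin-independent branch, had a median standing of 29.8, and Wnt2b 26.8. Peaks at Wnt4, Wnt9a and Wnt5b were among the lowest of any ligand, with medians of 1.25, 0.227 and 0.682. Wnt16 was called in 11 libraries, 5 of them at day 0 and none at day 2 or day 3. Wnt8a, a ligand of the primitive streak, was called in 4 libraries, all at day 2. Wnt8b was the only ligand called in none, and its nearest peak lay 15.0 kb away.

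Frizzled promoters had the lowest share of calls of the 5 roles, at 22.0%, though above the 7.06% over all protein-coding genes. Fzd5 and Fzd7 were called in no library, Fzd3 and Fzd6 in 2, Fzd2 in 3, Fzd4 in 6, Fzd8 and Fzd9 in 9, Fzd1 in 16 and Fzd10 in 19. All calls of Fzd2, Fzd3 and Fzd6 were at day 0, and those of Fzd3 and Fzd6 were in WT72 and CM40, the libraries with 3450 and 3466 peaks. Fzd10 alone had peaks of middling height, with a median standing of 28.4 among its called libraries, against 1.36 or less in the group apart from Fzd6 at 2.84. Fzd10 was called in 1 of 6 libraries at day 0 and in 6 of 6 at day 2.

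Secreted inhibitors fell into separate patterns by gene. Sfrp5 was called in 29 libraries and Dkk1, an LRP co-receptor blocker needed for head formation, in 24. Dkk2 was called in 20, Frzb in 13, Sfrp1 in 12 and Sfrp2 in 2, and Dkk3, Dkk4, Sfrp4 and Wif1 in none. Frzb, which binds Wnt ligands in the extracellular space, was called in all 12 libraries of days 0 and 2, in CM59 alone at day 3 and in no library at day 5. Its standings at day 0 were 26.4 and 35.5 in WT, 24.3 and 22 in KO, and 18.6 and 16.1 in MUT. Sfrp1 had peaks in 2 libraries at day 0, in 6 at day 2 and in none at day 5 XAV.

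All 6 genes of the R-spondin and Lgr group were called in at least 9 libraries. Rspo2 was called in 28, Rspo1 and Lgr6 in 14, Lgr5 in 13, Rspo3 in 10 and Rspo4 in 9. Rspo2 stood high at day 0, at 51.8 and 94.8 in WT, 97.5 and 97.3 in KO, and 94.3 in both MUT lines. At all later time points its highest value was 34.5, so day 0 did not overlap the rest. Rspo2 was picked for this after its values were seen, and the share of all promoters with such a gap is not given here. Lgr5, the R-spondin receptor of many adult stem cells and a Wnt target itself, was called in 5 libraries at day 0, 4 at day 2, none at day 3 or day 5 and 4 at day 5 XAV.

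Among nuclear factors and feedback targets, the β-catenin partners Tcf7, Tcf7l1 and Tcf7l2 and the feedback inhibitor Axin2 were called in no library. Lef1, the fourth gene of the TCF family, was called in 10, Nkd1 in 11 and Nkd2 in 18, both feedback inhibitors. Sp5, a transcription factor induced directly by the pathway, was called in 29 with a median standing of 68.4. Lef1 at day 0 was called in both WT lines (standings 12.7 and 2.73) and both MUT lines (23 and 2.95). Neither KO line had a Lef1 peak at day 0. At that day, 0.535% of promoters were called in both WT lines and neither KO line, and 0.944% in both MUT lines and neither KO line. With the same number of strongest peaks kept in every library of a time point, the WT and KO pattern held for 2.83% of promoters. With the same number kept in all libraries it held for 3.19%, and Lef1 showed it under both settings. The nearest peaks to the uncalled promoters lay 87.7 kb from Axin2, 91.9 kb from Tcf7, 494.5 kb from Tcf7l2 and 547.5 kb from Tcf7l1. Their windows were not poor in CG, with 209 for Axin2 and 168 for Tcf7l1.

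Letters read by TCF and LEF factors were about as frequent at the members as elsewhere. RefSeq promoters, taken from 250 bases before to 50 after the start, were searched on both strands. The motif CTTTGAT was found at Sp5, Wnt11 and Wnt5b, and in 3.73% of 32851 promoters. The motif CTTTGTT was found at Dkk1, Fzd7, Sp5, Tcf7l2 and Wnt3, and in 5.85% of promoters. Dkk1 alone held CTTTGAA (5.14% of promoters) and Lef1 alone held CTTTGTA (3.63%). At least 1 of the 4 was in 8 of 46 member promoters (17.4%), which belonged to 38 of the 53 members, and in 16.9% of all. A match is a description of letters, not a bound site.

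KO and WT cells were compared to see how the mark lay at these genes without TET1. After day 2, 6 members were called in at least 3 more of the 6 KO than of the 6 WT libraries, namely Wnt4, Wnt5b, Wnt9a, Fzd9, Lgr6 and Nkd2, and none in at least 3 fewer. Over the 3179 promoters, 21.2% were higher in KO by this rule and 0.0944% lower, so 6 of 42 members is below the background and is no result about the family. The share of all 53 members called per library after day 2 was 47.8% ± 5.56 in KO, 39.3% ± 7.0 in WT and 42.8% ± 14.1 in MUT (SD, n = 6). Over the 3179 promoters it was 54.7%, 33.3% and 42.0%. The member share counts the 11 members never called, while the 3179 promoters all had a peak in at least 2 libraries. The levels of the members and of the 3179 promoters therefore cannot be set side by side. The median difference between KO and WT after day 2 was 33.3 percentage points of libraries over the 2229 promoters tested and 0 over the 32 members among them. Of the 32 members 11 were higher in KO, 4 lower and 17 equal, and over the 2229 promoters 1427 were higher, 86 lower and 716 equal. The 9 members called in all 30 libraries could not differ, so the median of 0 partly reflects this limit. With equal numbers of peaks per library the difference in the members' share between KO and WT turned to -2.20 percentage points (equal within time points) or -1.89 (704 peaks in every library), from 8.49.

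Wnt4, a ligand of kidney and gonad development, differed most. It was called in 6 of 6 KO, 1 of 6 WT and 3 of 6 MUT libraries after day 2. Its standings in KO were 0 and 0 at day 3, 8.64 and 2.95 at day 5, and 0.227 and 0 with XAV. The 1 WT peak, in WT72 at day 5 XAV, stood at 0, and both WT lines had a peak at days 0 and 2. The exact conditional test gave p = 0.0278 for Wnt4 after day 2 (adjusted p = 0.348, Benjamini-Hochberg over the promoters tested) and p = 0.0278 over all time points (adjusted p = 0.844).

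The other 5 were called in 4 to 6 KO libraries after day 2. Wnt9a was called in 6 KO, 2 WT and 4 MUT libraries, with its highest KO standings at day 3 (4.09 and 20). Wnt5b was called in 4 KO, 1 WT and 4 MUT libraries, and in no library of any genotype at day 5 XAV. Fzd9, a receptor with no peak in any library at days 0 and 2, was called in 4 KO, 1 WT and 4 MUT libraries, and both KO lines at day 5 had it at 4.55 and 19.8. Lgr6, an R-spondin receptor, was called in 5 KO, 2 WT and 2 MUT libraries. Its 2 WT peaks were both at day 5 XAV (20.7 and 3.18). Nkd2 was called in 5 KO, 1 WT and 3 MUT libraries. Adjusted p was above that of Wnt4 for each of the 5.

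**Figure D3:**
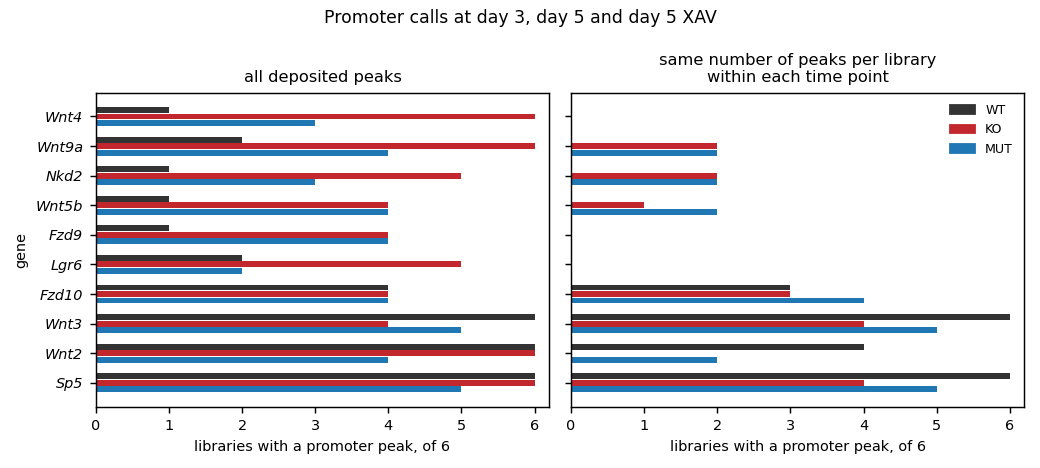
Libraries after day 2 with a promoter peak (horizontal axis, of 6 per genotype) for 10 members, with all deposited peaks on the left and with equal peak numbers within each time point on the right. Wnt4 and Wnt9a have 6 in KO and 1 and 2 in WT on the left, 0 and 2 in KO and 0 in WT on the right, and Wnt3 has 6 in WT and 4 in KO on both sides.

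These counts moved with the number of peaks per library. When the same number of strongest peaks was kept in every library of a time point, 0 members were called in at least 3 more KO than WT libraries, against 4.92% of promoters, and Wnt2 was called in at least 3 fewer (0 of 6 KO and 4 of 6 WT), against 2.98%. With 704 peaks kept in every library, 0 members were higher, against 7.6%, and Wnt2 and Wnt3 were lower, against 3.76%. With equal numbers within time points, Wnt4 then had no peak in any library after day 2, Wnt9a had 0 in WT, 2 in KO and 2 in MUT, and Nkd2 the same, while Fzd9 and Lgr6 had none.

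Single time points hold 2 libraries against 2, where the smallest two-sided exact p is 0.333, so separations are given as counts. At day 3, Wnt4 and Sfrp1 were called in both KO lines and neither WT line, against 11.8% of promoters. At day 5 there were 7 such members, Wnt4, Wnt5b, Wnt9a, Fzd9, Fzd10, Rspo4 and Lgr6, against 19.6%, and at day 5 XAV there was 1, Nkd2, against 8.46%. The reverse was seen for no member at day 5 (0.346% of promoters) or with XAV (0.252%). With equal peak numbers within time points the 7 members at day 5 became 1 (Nkd2, against 7.12%), and the reverse held for Wnt2 and Sp5, against 5.08%. With 704 peaks in every library they became 0, against 8.67%, and the reverse held for Wnt3, against 6.05%. Over all time points, Wnt4 (10 of 10 KO and 5 of 10 WT libraries), Wnt9a (9 and 5) and Lgr6 (8 and 3) were called in at least 4 more KO libraries, against 10.7% of promoters, and no member in at least 4 fewer, against 0.157%. For Lgr6 the exact conditional test gave p = 0.0417 (adjusted p = 0.980).

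At day 3 the reverse pattern was rare when all deposited peaks were used. Of 3179 promoters, 3 (0.0944%) were called in both WT lines and neither KO line at day 3, and 2 of the 3 were Wnt3 and Fzd10. Wnt3, a ligand needed to form the primitive streak, stood at 26.8 and 18 in WT and at 5.68 and 8.18 in MUT. Its peaks at day 3 reached from -4.84 to 3.64 kb around the start site in WT. In WT70 it was the peak of rank 225 by total signal among 969, and in WT72 of rank 271 among 1135. Neither KO15 nor KO1 had a peak at Wnt3, although they held 1849 and 1877 peaks, and the nearest lay 21.2 and 19.4 kb away. Both KO lines had a peak at the neighbouring Wnt9b promoter, with standings of 2.95 and 17.

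Fzd10, a Frizzled receptor of the dorsal neural tube, stood at 12.3 and 32 in WT and 15.7 and 44.5 in MUT at day 3, with no peak in KO. By total signal its WT peaks were weak, at rank 952 of 969 and 787 of 1135. At day 2 all 6 libraries had the peak, at 28.4 and 30.2 in WT, 14.1 and 33.4 in KO, and 38.6 and 40.5 in MUT. At day 5 the genotypes were the other way round, with peaks in both KO lines (3.86 and 1.36) and in no WT or MUT line. With equal peak numbers within time points 1 KO line kept the day 5 peak, and with 704 peaks in every library no line did. With the same number of peaks kept within each time point, Wnt3, Fzd10 and Wnt2 were called in both WT lines and neither KO line at day 3, and so were 47 of 1911 promoters (2.46%). With 704 peaks kept in every library, Wnt3 and Wnt2 were, and Fzd10 was not, and the pattern held for 32 of 1223 promoters (2.62%). The pattern was therefore not rare among all promoters once peak numbers were equal. Because KO25 was replaced by KO1 between day 2 and day 3, only KO15 gives both days, and in KO15 the peaks at Wnt3 and Fzd10 were present at day 2 and absent at day 3.

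**Figure D4:**
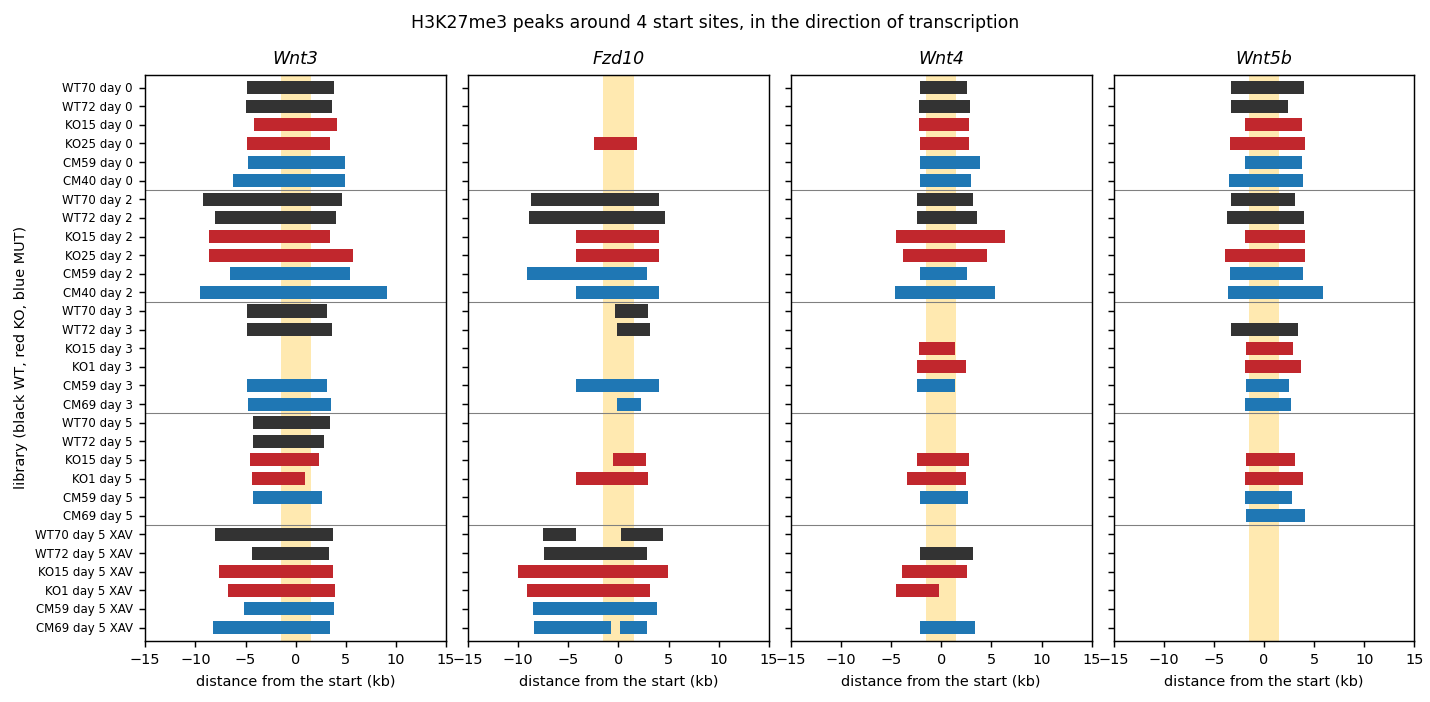
Called peaks around the start sites of Wnt3, Fzd10, Wnt4 and Wnt5b (horizontal axis, distance in kb with the direction of transcription to the right), with 1 line per library by time point in the colour of its genotype; shading marks 1.5 kb to either side. The 2 KO rows of day 3 are empty at Wnt3 and Fzd10, and the KO rows after day 2 are filled at Wnt4.

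Peak standing gave the same picture of small differences. Across all 10 libraries per genotype, 3 of 39 members tested had an unadjusted exact p under 0.05 between KO and WT, against 286 of 2857 promoters (10.0%). Dkk1 stood at a mean of 1.57 in KO and 4.39 in WT (permutation p = 0.0139, adjusted p = 0.305). Wnt9a stood at 3.02 in KO and 0.0909 in WT, and Rspo1 at 0.545 and 4.41 (permutation p = 0.037, adjusted p = 0.432 for each). No promoter of the genome passed an adjusted p of 0.05 in this or any other contrast reported here. For calls after day 2 or with XAV, the smallest p of the exact conditional test is 0.00926. An adjusted p under 0.05 would need 413 promoters at that p for KO and WT, 343 for MUT and WT, and 435 for XAV. The lack of adjusted results for calls is therefore no evidence that calls were equal. The counts at an unadjusted p under 0.05 were 117 promoters for KO and WT calls over all time points and 178 after day 2, of which 2 and 1 were members.

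MUT cells, which carry TET1 without catalytic activity, were compared with the same WT libraries that served for KO. After day 2, Wnt5b and Fzd9 were called in 4 of 6 MUT and 1 of 6 WT libraries, against 5.06% of promoters higher by this rule. Dkk2, a modulator that acts through LRP co-receptors, was called in 2 of 6 MUT and 5 of 6 WT libraries, against 0.755% lower. Over all time points Dkk2 was called in 4 of 10 MUT, 9 of 10 WT and 7 of 10 KO libraries, where 0.661% of promoters were lower in MUT by at least 4 libraries (exact conditional test, p = 0.0417, adjusted p = 1). Sfrp1, a secreted Wnt-binding inhibitor, was called in 6 of 10 MUT, 2 of 10 WT and 4 of 10 KO libraries, against 1.89% higher. None of these differences reached its limit of libraries with equal peak numbers within time points. After day 2, Wnt5b then had 2 MUT and 0 WT calls, Fzd9 none and Dkk2 0 and 1, and over all time points Dkk2 had 2 and 4 and Sfrp1 4 and 2.

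Wnt2 had the smallest p of any member for standing between MUT and WT. Its mean standing was 6.02 in MUT and 17.9 in WT over 10 libraries each (permutation p = 0.0036, adjusted p = 0.243). The values at day 2 were 4.32 and 10.2 in MUT, 21.1 and 35 in WT, and 15.2 and 13 in KO, and at day 3 they were 1.14 in both MUT and both KO lines and 33.4 and 18 in WT. At days 2 and 3 the WT lines did not overlap the others, and at day 0 the MUT values of 23 and 18 lay among the WT values of 14.5 and 23.4. How many of all promoters show such a gap is not given here. Rspo1, Dkk2 and Lef1 also had an unadjusted exact p under 0.05, with Lef1 higher in MUT (means of 10.5 and 1.82) and the other 2 lower. With Wnt2 these are 4 of 42 members, against 204 of 2896 promoters (7.04%). Calls differed between KO and MUT at an unadjusted p under 0.05 for 16 promoters and for no member.

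XAV was compared with no XAV at day 5 in the same 6 lines. Fzd10 was called in 6 of 6 lines with XAV and 2 of 6 without, Dkk1 in 5 and 2, and Lgr5 in 4 and 0, where 2.55% of promoters were called in at least 3 more libraries with XAV. Wnt5b was called in 0 and 4 and Rspo4 in 0 and 3, against 4.4% in at least 3 fewer. For Fzd10 and Wnt5b the exact conditional test gave p = 0.0556 (adjusted p = 1). The number of members called went from 17 to 21 in WT70, 21 to 27 in WT72, 27 to 30 in KO15, 26 to 24 in KO1, 32 to 13 in CM59 and 15 to 28 in CM69. Peak numbers moved with these counts, from 2847 to 704 in CM59 and from 1191 to 1924 in CM69. With 704 peaks kept in every library, Fzd10 was called in 5 lines with XAV and 0 without, and Dkk1, Lgr5, Wnt5b and Rspo4 in none of the 12 libraries.

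Standings separated XAV from day 5 more clearly than calls at a few members, which were picked here after their values were seen. Wnt3 stood at 14.3 and 0.455 in WT, 3.86 and 3.18 in KO, and 0 and no peak in MUT at day 5. With XAV it stood at 59.5 and 44.3 in WT, 43.9 and 71.6 in KO, and 38.4 and 62.7 in MUT. Every value with XAV was above every value without, at means of 53.4 ± 13.1 and 3.64 ± 5.49 (SD, n = 6, permutation p = 0.00926, adjusted p = 0.242). This p is the smallest that the 3 genotypes of 2 lines can give. How many of all promoters separate completely in this way is not given here.

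Wnt5a, Wnt6 and Fzd10 were also higher with XAV in 6 of 6 lines. Over the 2348 promoters tested, 2.77% were higher in 6 of 6 lines and 3.75% lower. The mean standing of Wnt5a was 41.7 with XAV and 3.33 without, that of Wnt6 80.5 and 36.1, and that of Fzd10 28.3 and 0.871. For Wnt6 the 2 KO values with XAV (95 and 93.6) belong to peaks shared with Wnt10a. The mean standing of Sp5 was 63.9 ± 19.3 with XAV and 18.1 ± 17.0 without (SD, n = 6, permutation p = 0.0185, adjusted p = 0.302), higher in 5 of 6 lines and lower in WT72 (44.3 and 48).

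Sfrp5 and Wnt1 were lower with XAV in 6 of 6 lines. Sfrp5, a secreted inhibitor expressed in anterior endoderm, stood at 51.6 and 42.7 in WT, 64.8 and 43 in KO, and 18.2 and 51.1 in MUT at day 5. With XAV it stood at 7.95 and 19.5 in WT, 3.41 and 8.18 in KO, and no peak and 7.27 in MUT, where the library without a peak is the one with 704 peaks. The means were 7.73 ± 6.61 with XAV and 45.2 ± 15.5 without (SD, n = 6, permutation p = 0.00926, adjusted p = 0.242). Wnt1 stood at a mean of 56.3 with XAV and 76.9 without. With each line as its own pair the smallest p possible is 0.0312, which Wnt3, Wnt5a, Wnt6, Fzd10, Wnt1 and Sfrp5 had (exact permutation by line, adjusted p = 0.48).

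**Figure D5:**
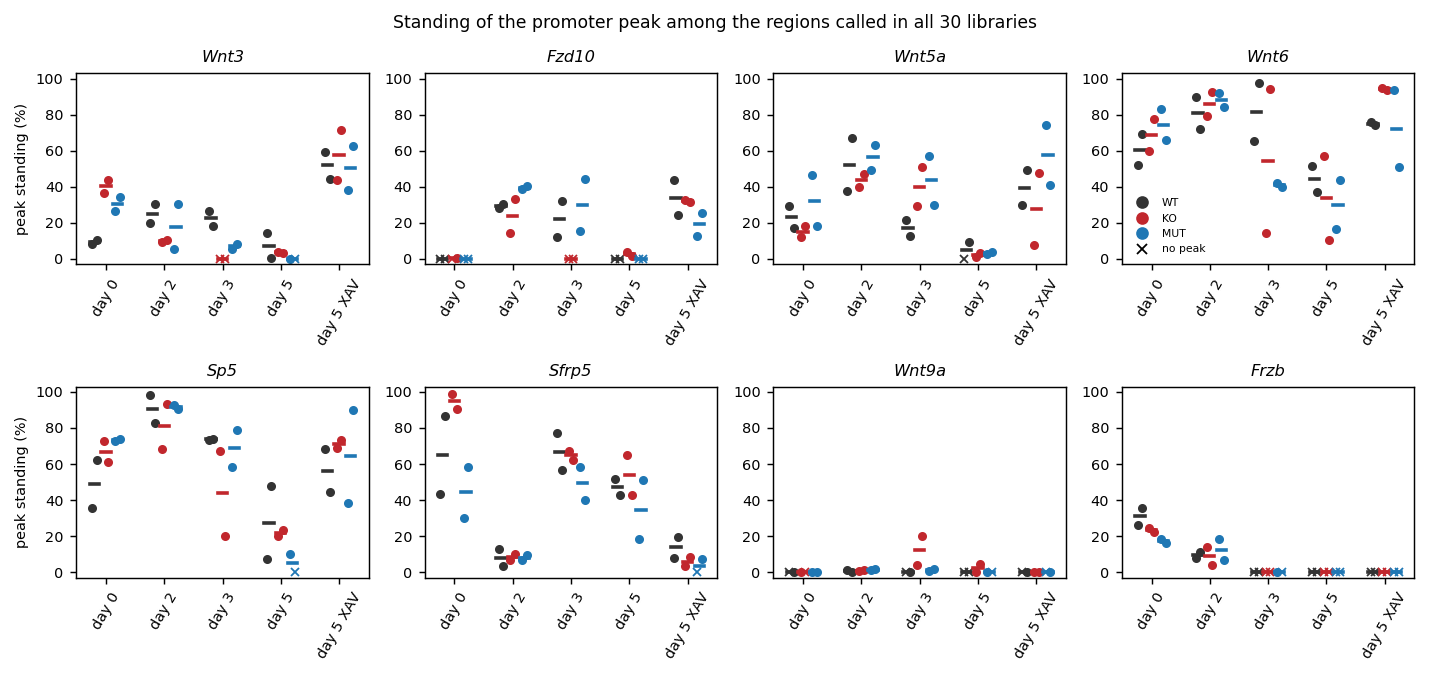
Standing of the highest peak at the promoters of Wnt3, Fzd10, Wnt5a, Wnt6, Sp5, Sfrp5, Wnt9a and Frzb (vertical axis, percent of the 440 regions with a lower peak) by time point. Points are lines in the colour of their genotype, crosses at 0 are lines without a peak and bars are means of 2 lines. Wnt3, Wnt5a, Wnt6 and Fzd10 are higher at day 5 XAV than at day 5 in all 6 lines, and Sfrp5 is lower.

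Time points were compared within genotypes. From day 0 to day 2, Fzd10 was called in 1 and then 6 libraries, Wnt8a in 0 and 4 and Sfrp1 in 2 and 6, where 7.8% of promoters were called in at least 3 more. Over the same step 8 members were called in at least 3 fewer (Wnt16, Fzd2, Fzd8, Dkk2, Rspo1, Rspo4, Lgr6 and Nkd2), against 16.9% of promoters. Fzd8 was called in 6 libraries at day 0 and 1 at day 2, and Wnt16 in 5 and 0. For Fzd8, Wnt16 and Fzd10 the exact conditional test gave p = 0.0278 (adjusted p = 0.398).

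From day 2 to day 3 Fzd9 was called in 0 and then 3 libraries, against 0.44% of promoters called in at least 3 more. The promoters of 7 members, Wnt4, Wnt8a, Sfrp1, Frzb, Rspo3, Lgr5 and Lef1, were called in at least 3 fewer, against 16.1%. Frzb went from 6 to 1 libraries and Rspo3 from 5 to 0 (exact conditional test, p = 0.0278, adjusted p = 0.509 for each). The change of the second KO and MUT line falls in this step. The WT lines did not change. Both had calls at Wnt4, Wnt8a, Sfrp1, Frzb, Rspo3, Lgr5 and Nkd2 at day 2, and neither had them at day 3. Calls in WT fell over this step, from a mean of 56.1% to 27.3% of promoters with a peak in at least 2 libraries. Peak numbers in WT fell from 2185 and 1856 to 969 and 1135. The share of all promoters lost in both WT lines is not given here, so these losses cannot be set apart from the general fall.

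From day 3 to day 5, Wnt16, Dkk2, Rspo1, Rspo4 and Nkd2 were called in at least 3 more libraries, against 13.8% of promoters, and Fzd1 and Dkk1 in at least 3 fewer, against 2.14%. Rspo1, an R-spondin, went from 0 to 5 libraries (exact conditional test, p = 0.0278, adjusted p = 0.794), after 4 at day 0 and 1 at day 2. Wnt16, Dkk2, Rspo1, Rspo4 and Nkd2 were thus all called in fewer libraries at day 2 than at day 0 and in more at day 5 than at day 3. The share of all promoters with both steps is not given here, so this is no result about the family. Between day 0 and day 5 Frzb was called in 6 and 0 libraries (exact conditional test, p = 0.00926, adjusted p = 0.392). With 704 peaks kept in every library, Fzd10 (0 and 6) and Sfrp1 (0 and 4) kept a gap of at least 3 from day 0 to day 2, and Sfrp1 (4 and 1) from day 2 to day 3. The other members named for a step between days did not, and most had no call left.

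The deposited region lists come from the study's own comparison of KO with WT, so their directions in these libraries are not independent evidence. Regions named gain-gain in KO overlapped 16 of the 42 members, against 39.7% of the 3179 promoters, and those gained in KO at day 5 XAV overlapped 23, against 55.6%. Loss-gain regions overlapped 8, against 20.9%, and loss-loss regions 12, against 20.6%. Wnt3 was in the loss-loss list together with Wnt8a, Wnt11, Wnt16, Fzd1, Fzd4, Dkk1, Dkk2, Frzb, Rspo3, Lgr5 and Sp5. Fzd10 was in the loss-gain list, with Wnt7b, Fzd6, Fzd9, Sfrp1, Lgr6, Lef1 and Nkd2. Wnt4, Wnt5b and Wnt9a were in the gain-gain list. The 4 lists thus held 3 of the 6 members called in more KO libraries as gain-gain and the other 3, Fzd9, Lgr6 and Nkd2, as loss-gain.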

How the data were processed

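CUT&RUN for H3K27me3 was analysed from 30 libraries, each with an IgG library that entered only through peak calling. The authors used Trim Galore, Bowtie with GRCm38.p6 (mm10) as genome, Picard to drop duplicates, and SEACR in stringent mode (version not stated) to call peaks. The deposited peak files hold a signal that the authors took from fragment coverage, as a total and a highest value per peak. Whether it was scaled between libraries is not given in the sources used here, so it was used only to rank peaks within a library. The deposited region lists, made by the authors with DiffBind 3.0.15, hold positions.

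Promoters were windows of 1500 bp around GENCODE M21 protein-coding starts. Calls were compared with an exact conditional test, two-sided, with genotype labels exchanged within time points (or the reverse) and Benjamini-Hochberg adjustment over promoters with a peak in at least 2 libraries of the contrast. Standings were tested by exact permutation in the same strata. Different days of 1 line counted as separate libraries. Both were tested on simulated data. Members were named where libraries differed by at least 3 (by at least 4 over all time points). Members and lists were chosen with earlier results of these data known. The number of peaks kept, the window, the starts, the overlap, single lines and limma were varied. A free-text label of the KO25 samples refers to WT70, and their title, cell line and genotype were followed.

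XAV and untreated cultures came from the same lines, which pairs them. The deviations of the lines at day 5 and day 5 XAV correlated at 0.11 in WT, 0.173 in KO and -0.239 in MUT. Sequences were read from RefSeq GRCm38.p6. Python 3.11.15, NumPy 2.4.6, pandas 2.3.3, SciPy 1.17.1, pysam 0.24.0, Matplotlib 3.10.9 and limma 3.58.1 in R 4.3.3 were used.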

Additional observations from a re-analysis of the deposited data

Results flagged for a closer look

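Fzd10 was noted because the genotypes went opposite ways from day 3 to day 5. Both KO lines had no peak at day 3 and a peak at day 5, while both WT and both MUT lines had a peak at day 3 and none at day 5. The changes in the number of libraries differ by 4 between KO and WT and by 4 between KO and MUT, and the difference was not tested.

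In 4 groups of libraries, 1 library lay far from the others in the number of members called. WT72 at day 0 called 6 Frizzled promoters, against 0 to 3 in the other WT libraries, and held 3450 peaks. For nuclear factors and feedback targets, WT72 at day 5 called 2 and the other WT libraries after day 2 called 1, KO15 at day 5 XAV called 3 and the other KO libraries after day 2 called 2, and KO15 at day 2 called 1 against 2 or 3 in the other KO libraries. Chance flags about 1 in 20 groups, and these counts take few values.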

How the results depend on the processing

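No promoter passed an adjusted p of 0.05 in any contrast of calls under the alternatives run, which were other windows, starts and overlaps, equal peak numbers, single lines or time points left out, and the replicate block; the block left 0 calls for XAV with 3 promoters at an unadjusted p under 0.05. Crossing the MUT lines in the replicate block, an alternative added after seeing the data, also gave 0. Leaving out the library with 704 peaks, likewise added afterwards, gave 0 in every contrast. For calls, these outcomes cannot tell equal calls from too few libraries. For peak standing between KO and WT, total signal in place of the highest signal gave 90 promoters at an adjusted p under 0.05, none of them a member (lowest adjusted p of a member, Wnt4 and Dkk1, 0.133), and for MUT and WT limma gave 7, again no member (Wnt2, adjusted p = 0.275 in limma and 0.243 by permutation). The members called in both KO and neither WT line at day 5 were 7, and 0 when 704 peaks were kept per library or 1 when peak numbers were made equal within time points. The member share in KO minus WT after day 2 was 8.49 percentage points and turned to -1.89 and -2.20 under these 2 settings. Both settings keep fewer peaks per library. Without single lines that share was 3.77 to 13.2. Of 45 differences in calls of named members, 9 kept their direction with 704 peaks in every library and 36 came to 0, and with equal numbers within time points 30 kept it, 14 came to 0 and 1 turned (Dkk1 with XAV, 0 libraries with and 1 without). Of the 45, 39 and 20 had calls in too few libraries to be tested. The second setting kept 704 peaks with XAV and 1191 at day 5. Fzd10 at day 3 also came to 0 with 704 peaks. Read depth is unknown, so a promoter without a peak may carry the mark below what a library could show.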
